A study of Homo sapiens with 24 samples.

Results

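The 8 genes described here are 7 members of the enzyme families that reduce aldehydes and ketones and a pseudogene: the aldo-keto reductases AKR1B1, AKR1B10, AKR1C1, AKR1C2 and AKR1C3, the carbonyl reductases CBR1 and CBR3, and NMRAL2P. They were taken by symbol from the 58051 genes of the count tables, and all 8 were found. The list has no numerical threshold, but it was chosen by response to Ocoxin seen earlier in these same libraries. The differences between Ocoxin and control are therefore given as a description of the members, without p-values, and support nothing beyond it.

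RNA was sequenced from 4 human cancer cell lines, each the only line of its tumor type: SW620 for colon adenocarcinoma (COAD), BxPC-3 for pancreatic adenocarcinoma (PAAD), LNCaP for prostate adenocarcinoma (PRAD) and HCC-70 for triple negative breast cancer (TNBC). Ocoxin is a supplement that combines plant extracts with amino acids, minerals and vitamins. Cells received it in medium with 1% serum for 48 h, diluted 1:700 for SW620 and HCC-70, 1:500 for BxPC-3 and 1:50 for LNCaP, and the polyadenylated RNA of the adhered cells was sequenced in 3 control and 3 Ocoxin libraries per line. Per the paper, each dilution was about the inhibitory dose (IC50) found for that line in a viability assay. The dilution still changes with the line. A difference in response between LNCaP or BxPC-3 and another line therefore cannot be told apart from a difference in dose. Nothing in the labels says whether the 3 libraries of a group came from separate cultures, so their spread may be technical.

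Aldo-keto reductases use NADPH to turn aldehydes and ketones into alcohols. AKR1B1 (aldose reductase) acts on glucose in the polyol pathway, AKR1B10 on retinal and on reactive aldehydes, and the AKR1C enzymes on steroids, prostaglandins and the carbonyls left by lipid peroxidation. CBR1 and CBR3 belong to the unrelated short-chain dehydrogenase family, and CBR1 is known for the reduction of prostaglandins and of anthracycline drugs. Several of these genes are textbook targets of NRF2 (gene NFE2L2), a transcription factor that KEAP1 keeps low until electrophiles or oxidants release it, and that binds antioxidant response elements. NMRAL2P is a pseudogene related to NMRAL1 and has been described as an NRF2-induced RNA.

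The AKR1C genes lie side by side on chromosome 10 (hg38), AKR1C1 at chr10:4963253-4983283 on the plus strand, AKR1C2 at chr10:4987400-5018031 on the minus strand and AKR1C3 at chr10:5035354-5107686 on the plus strand. They are shown because their likeness limits what a count for each of them means. The coding sequences are 969 bases long in the reference transcripts (GENCODE release 44), and AKR1C1 and AKR1C2 differ at 19 of these bases (98.0% identity). AKR1C3 is 91.4% identical to AKR1C1 and 91.0% to AKR1C2. The first 90 coding bases follow, with capitals at the 11 positions where the 3 genes are not all alike.
AKR1C1: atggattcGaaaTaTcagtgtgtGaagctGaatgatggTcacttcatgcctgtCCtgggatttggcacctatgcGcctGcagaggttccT
AKR1C2: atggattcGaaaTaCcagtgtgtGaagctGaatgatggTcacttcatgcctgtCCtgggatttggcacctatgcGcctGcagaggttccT
AKR1C3: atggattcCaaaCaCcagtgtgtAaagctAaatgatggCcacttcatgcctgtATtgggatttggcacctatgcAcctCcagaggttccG
AKR1C1 and AKR1C2 part at a single base of this stretch, while AKR1C3 carries its own base at most of the marked positions. Of all 100-base windows of the AKR1C2 reference transcript, 27.8% also occur in a transcript of another gene, against 12.6% for AKR1C1 and 7.8% for AKR1C3. The counts are of primary alignments, so a read from such a window may have been given to either gene, and the values of AKR1C1 and AKR1C2 are uncertain to that extent.

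AKR1B1 (chr7:134442350-134459284, minus strand) and AKR1B10 (chr7:134527592-134541408, plus strand) are less alike, with 76.7% identity over 944 aligned coding bases, and no 100-base window of AKR1B1 is shared with another gene. AKR1B10 shares 2.0% of its 100-base windows, mostly with AKR1B15, whose coding sequence is 92.6% identical. The first 60 coding bases of the pair differ at 21 positions, marked by capitals, which shows how easily their reads are told apart.
AKR1B1: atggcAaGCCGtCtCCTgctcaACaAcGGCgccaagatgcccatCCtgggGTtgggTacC
AKR1B10: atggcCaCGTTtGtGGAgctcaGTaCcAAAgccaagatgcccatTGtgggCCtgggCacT
CBR1 (chr21:36069941-36073166) and CBR3 (chr21:36134912-36146566) share 77.0% of 831 coding bases. Their uncertainty lies elsewhere. The antisense genes CBR1-AS1 and CBR3-AS1 cover 464 of the 2450 exonic bases of CBR1 (18.9%) and 493 of the 1169 of CBR3 (42.2%), and reads in those stretches were dropped or, without use of the strand, could not be told from antisense reads. NMRAL2P (chr3:185959943-185980872, plus strand) shares no 50-base window with another gene. The later annotation divides its span between a pseudogene and a long noncoding RNA, so its counts stand for the whole span.

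Promoters are shown for the genes whose window holds the antioxidant response element core, because the NRF2 targets are compared with the members later. RefSeq windows of 250 bases before to 50 bases after a start (GRCh38.p14) were at hand for AKR1B1, AKR1C1, AKR1C2, AKR1C3 and CBR1, with 2 starts each for AKR1B1 and AKR1C3. The letters TGACNNNGC and TGAGNNNGC were searched on both strands. The core was found in AKR1C1, AKR1C2 and CBR1, while 29.1% of all 35116 promoters of that length hold at least 1 of these cores (13.3% TGACNNNGC and 18.3% TGAGNNNGC), so a match is common. The 250 bases before the start follow, 5′ to 3′ on the gene's strand, with the matches in capitals.
AKR1C1, chr10:4963165-4963414: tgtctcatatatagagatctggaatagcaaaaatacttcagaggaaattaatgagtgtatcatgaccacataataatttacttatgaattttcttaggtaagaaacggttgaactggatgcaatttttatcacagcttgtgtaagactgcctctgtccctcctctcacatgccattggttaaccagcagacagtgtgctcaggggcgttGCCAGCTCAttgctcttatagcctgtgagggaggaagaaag
AKR1C2, chr10:5003858-5004107: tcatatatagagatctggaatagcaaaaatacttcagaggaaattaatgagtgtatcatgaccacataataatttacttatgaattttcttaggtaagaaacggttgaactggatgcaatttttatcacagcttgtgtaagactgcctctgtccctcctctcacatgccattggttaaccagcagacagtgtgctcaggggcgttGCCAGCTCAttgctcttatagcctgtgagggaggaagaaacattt
CBR1, chr21:36069774-36070023: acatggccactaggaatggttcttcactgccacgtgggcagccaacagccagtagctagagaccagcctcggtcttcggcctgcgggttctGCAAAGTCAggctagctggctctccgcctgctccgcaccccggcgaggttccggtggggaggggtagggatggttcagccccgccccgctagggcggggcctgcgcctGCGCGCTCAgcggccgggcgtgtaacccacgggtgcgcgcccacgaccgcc
The AKR1C1 and AKR1C2 windows are the same sequence shifted by 4 bases, with 1 mismatch in 246 compared bases (99.6% identity). Their only core, TGAGNNNGC read on the opposite strand, begins 41 bases before the start in AKR1C1 and 45 in AKR1C2. CBR1 holds a TGACNNNGC core that begins 159 bases before its start and a TGAGNNNGC core 51 bases before it, both on the opposite strand.

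The libraries held between 9063968 and 9520969 counts for LNCaP and between 25160757 and 39009959 for the other lines, whose table mostly gives 2 counts per sequenced fragment. Values are counts per 1000000 counts (CPM) scaled by the trimmed mean of M-values (TMM), and levels between genes are CPM per kilobase of exon (RPKM). Epithelial markers were present in all lines, for example KRT8 between 20.9 and 22.3 RPKM in LNCaP and between 421 and 492 RPKM in SW620. LNCaP expressed KLK2 and KLK3, and BxPC-3 expressed KRT7 and KRT19. KRT7 and KRT19 were not particular to BxPC-3, since HCC-70 had 139 to 173.4 RPKM of KRT7 and 493.7 to 697.4 of KRT19. Of the other pancreatic duct markers, SOX9 had 4.565 to 6.845 RPKM in BxPC-3 against 40.53 to 44.86 in HCC-70. MUC1 had 17.2 to 21.14 RPKM in BxPC-3 against 60.85 to 82.97 in HCC-70. HCC-70 expressed KRT5, KRT17 and EGFR with PGR at 0 counts. ERBB2, a marker taken as low in triple negative cells, had 23.88 to 28.31 RPKM there, and ESR1 had 210 to 304 counts per library. These markers were not particular to HCC-70, since BxPC-3 also expressed KRT5, KRT17 and EGFR, and PGR had 0 counts in SW620 and BxPC-3 as well. In SW620 the colon markers were uneven, with VIL1 between 61.96 and 70.26 RPKM but CDX1 at 0 to 3 counts in each library. In LNCaP the leukocyte gene PTPRC had 0 to 2 counts and the endothelial gene PECAM1 0 to 1 in every library.

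Before any response, the lines differed widely in how much of these RNAs they held. In untreated BxPC-3 cells, 7 of the 8 members had their highest mean level, and CBR3 was highest in HCC-70. The exonic lengths behind RPKM join all transcripts of a gene, so that AKR1C1 is divided by 8765 bases although its reference transcript has 6543, and the LNCaP table was counted and scaled apart from the other 3 lines. These levels are therefore approximate between genes and between LNCaP and the rest, and no test was made.

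**Figure D1:**
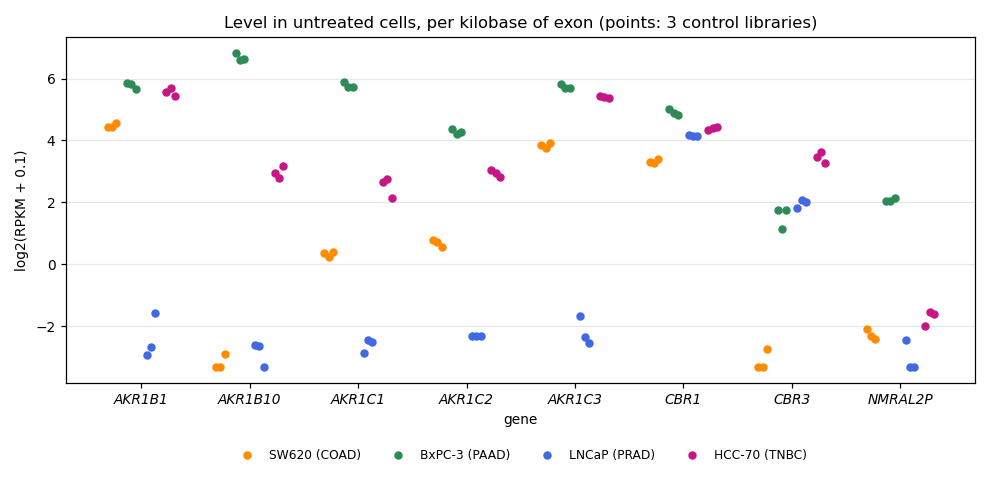
Level of each gene in the 3 control libraries of each cell line, as log2(RPKM + 0.1) on the vertical axis, with a color for each line and a point for each library. BxPC-3 has the highest mean for every gene except CBR3, and LNCaP lies near the bottom for all genes except CBR1 and CBR3.

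AKR1B10 spanned the widest range. It had 114, 98.0 and 99.7 RPKM in the BxPC-3 controls, 7.60, 6.73 and 8.91 in HCC-70, and no more than 0.062 RPKM in any LNCaP or SW620 control, that is 0 to 2 counts per library. AKR1B1 was high in BxPC-3 with 54.8 ± 3.53 RPKM (mean ± SD, n = 3) and in HCC-70 with 47.4 ± 3.87, and the lowest BxPC-3 library (50.7) lay below the highest of HCC-70 (51.3), so these neighbours did not separate. SW620 followed with 22.1 ± 1.14 RPKM, and LNCaP had 0.030, 0.058 and 0.238 RPKM. Aldose reductase was thus at trace level in LNCaP and plain in the other lines, and AKR1B10 was plain in BxPC-3 and HCC-70 and at the edge of detection elsewhere.

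AKR1C1 had 55.2 ± 3.31 RPKM in BxPC-3, 5.72 ± 1.23 in HCC-70 and 1.16 ± 0.081 in SW620, and AKR1C2 had 19.5 ± 1.11, 7.59 ± 0.567 and 1.51 ± 0.125 in the same order. AKR1C3, which makes testosterone from androstenedione, was 53.6 ± 2.73 RPKM in BxPC-3, 42.3 ± 0.708 in HCC-70 and 14.2 ± 0.807 in SW620. In these lines no neighbours overlapped for any of the AKR1C genes. LNCaP, an androgen-sensitive line, stood apart with 0.065 ± 0.025 RPKM for AKR1C1, 0.1002 ± 0.0015 for AKR1C2 and 0.127 ± 0.078 for AKR1C3, which are 3 to 9 counts per library. AKR1C3 was therefore the leading AKR1C gene in SW620 and HCC-70, while in BxPC-3 the ranges of AKR1C1 (53.2 to 59.0) and AKR1C3 (51.9 to 56.8) overlapped.

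CBR1 was the most even member. It had 30.1 ± 2.26 RPKM in BxPC-3, 20.9 ± 0.759 in HCC-70, 17.7 ± 0.256 in LNCaP and 9.91 ± 0.411 in SW620, without overlap between neighbours. CBR3 was 10.8 ± 1.35 RPKM in HCC-70, 3.81 ± 0.333 in LNCaP and 2.86 ± 0.662 in BxPC-3, and in SW620 2 controls had 0 counts and the other 2 counts. NMRAL2P was seen clearly in BxPC-3 alone, with 4.13 ± 0.142 RPKM, against 0.208 ± 0.050 in HCC-70 and 0.107 ± 0.024 in SW620. In LNCaP NMRAL2P had 2, 0 and 0 counts.

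AKR1C1, AKR1C2, AKR1C3 and NMRAL2P were the members for which all 3 Ocoxin libraries lay above all 3 controls in each of the 4 lines. Such an order also held for 10.2% to 18.3% of all genes tested, depending on the line. Some gaps were narrow. AKR1C3 in BxPC-3 had 240.7 CPM in its lowest Ocoxin library against 238.3 in its highest control. For NMRAL2P in SW620 these values were 0.4065 and 0.3883 CPM, and neither gene was called there. A gene was called with an adjusted p under 0.05 in the quasi-likelihood test of edgeR, fitted to all genes of a line. By that rule 2 of 6 tested members rose in SW620, where 1.47% of all genes tested were called higher and 1.09% lower. In BxPC-3 4 of 8 rose (4.72% of all genes higher, 3.62% lower), in LNCaP 1 of 6 (2.4% higher, 0.58% lower) and in HCC-70 4 of 8 (9.65% higher, 11.3% lower). In LNCaP AKR1C1, AKR1C2, AKR1C3 and NMRAL2P entered the test through their Ocoxin libraries alone, as did NMRAL2P in SW620. None was called lower by edgeR in any line, also none at an unadjusted p under 0.05, and none was by DESeq2. Since the members were chosen on these contrasts, nothing is read from these shares.

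Counted by ranges, the Ocoxin libraries lay wholly above the controls for 5 members in SW620, 5 in BxPC-3, 7 in LNCaP and 5 in HCC-70, and wholly below for 0 in each. Over all genes tested, Ocoxin lay wholly above in 10.2%, 13.6%, 15.1% and 18.3% and wholly below in 10.4%, 13.9%, 12.6% and 19.9%, in the same order of lines. The median log2 fold change of the 8 members was 0.18 in BxPC-3 and 0.54 in HCC-70, where all were tested, beside 0.003 and 0.006 over all genes. No median is given for SW620 and LNCaP, where the filter decided which members were tested. In a single fit of all 24 libraries, which share an estimate of the spread, 0 members were called in SW620 and in BxPC-3, 6 in LNCaP, and 3 in HCC-70, where AKR1C2 lost its call.

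**Figure D2:**
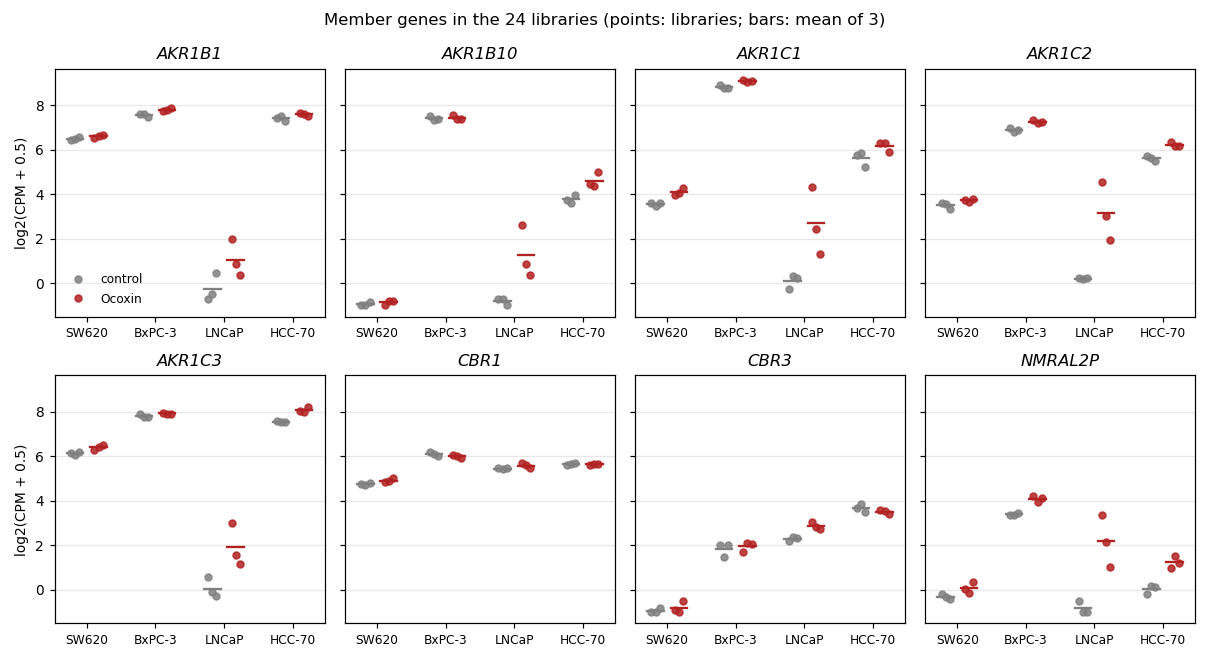
Each of the 8 genes in the 24 libraries, as log2(CPM + 0.5) on the vertical axis against cell line, with control libraries in grey, Ocoxin libraries in red and a bar at each mean of 3. The Ocoxin points of AKR1C1, AKR1C2, AKR1C3 and NMRAL2P lie above the controls in every line, and CBR1 is nearly level.

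**Figure D3:**
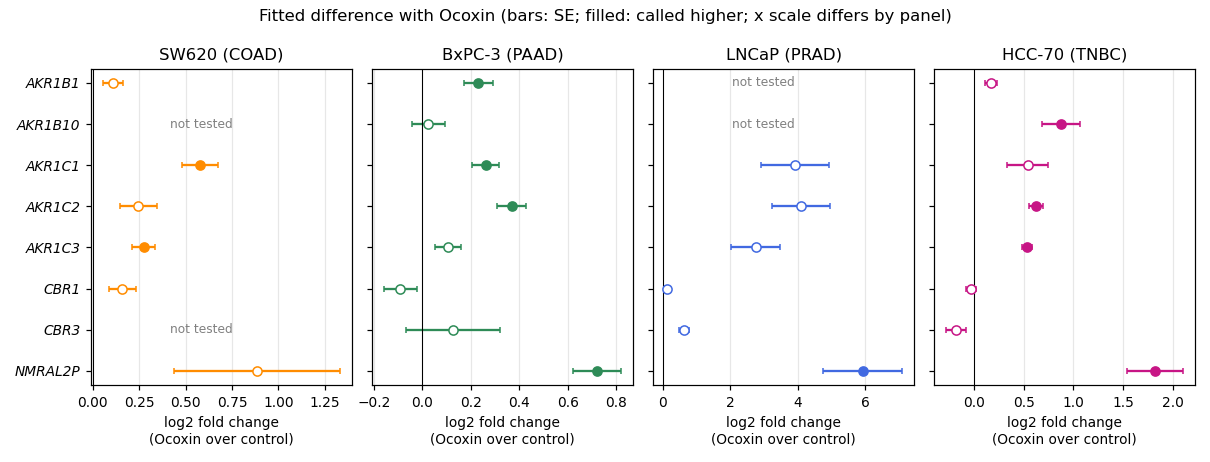
Fitted log2 fold change of Ocoxin over control with its standard error for each gene and line, on a scale that differs by panel, with filled points for genes called higher. The LNCaP panel spans about 6 log2 units, whereas the BxPC-3 values stay under 0.8.

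NMRAL2P, the pseudogene RNA, had the largest fitted log2 value among the tested members in each line. In BxPC-3 its controls had 9.81, 9.96 and 10.6 CPM and the Ocoxin libraries 18.2, 15.03 and 16.8 CPM, so the groups were well apart, and it rose with a log2 fold change of 0.72 (SE 0.099). In HCC-70 the controls had 0.389, 0.630 and 0.590 CPM and the Ocoxin libraries 1.45, 2.42 and 1.84, and it rose by 1.82 on the log2 scale (SE 0.28). In SW620 it was near the limit of detection. The controls there had 12, 10 and 8 counts and the Ocoxin libraries 16, 11 and 20, in smaller libraries, and its log2 value of 0.88 (SE 0.45) was not called.

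AKR1C1, a steroid reductase known for the inactivation of progesterone, rose in SW620 and BxPC-3. The SW620 controls had 11.4, 10.4 and 11.7 CPM and the Ocoxin libraries 15.1, 16.3 and 18.6, with a log2 fold change of 0.58 (SE 0.098). In BxPC-3 the change from 479, 436 and 437 CPM to 560, 528 and 533 CPM amounted to 0.26 on the log2 scale (SE 0.055), the largest difference in CPM of any member in any line. That call was lost without control 2 or Ocoxin 1, at log2 values of 0.23 and 0.24. In HCC-70 the controls had 52.9, 57.2 and 37.1 CPM and the Ocoxin libraries 77.9, 76.9 and 59.3. The libraries numbered 3 were the lowest of both groups, and the log2 value of 0.54 (SE 0.20) was not called. With the replicate number as a block, AKR1C1 was called higher at a log2 value of 0.55.

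AKR1C2, a steroid reductase known for the inactivation of dihydrotestosterone, rose in BxPC-3 and HCC-70. In BxPC-3 the controls had 124, 111 and 117 CPM and the Ocoxin libraries 159, 145 and 151 CPM, a log2 fold change of 0.37 (SE 0.060). In HCC-70 they had 51.6, 47.9 and 44.5 CPM against 80.8, 70.7 and 70.6 CPM, a log2 fold change of 0.63 (SE 0.068). In SW620 the values of 11.5, 11.1 and 9.60 CPM in controls and 12.7, 12.01 and 13.4 CPM with Ocoxin did not overlap, but the log2 value of 0.25 (SE 0.10) was not called.

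AKR1C3 rose in SW620 and HCC-70. In HCC-70 the controls were close together at 191, 188 and 185 CPM and the Ocoxin libraries had 265, 254 and 295 CPM, a log2 fold change of 0.53 (SE 0.050). In SW620 the controls had 71.4, 66.9 and 73.5 CPM and the Ocoxin libraries 78.8, 86.1 and 91.1, a log2 fold change of 0.27 (SE 0.061). That call was lost without control 1, control 2, Ocoxin 2 or Ocoxin 3, at log2 values between 0.23 and 0.29. In BxPC-3 the AKR1C3 values of 238, 221 and 221 CPM against 248.7, 241.7 and 240.7 CPM gave 0.11 (SE 0.054), which was called only with the replicate block, at the same log2 value. The AKR1C genes thus share their direction in these 3 lines, with the reservation that AKR1C1 and AKR1C2 share reads.

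AKR1B10 rose in HCC-70 alone. Its controls had 12.97, 11.5 and 15.2 CPM and its Ocoxin libraries 21.3, 20.4 and 31.1, the last well above the others, with a log2 fold change of 0.88 (SE 0.19). The call was lost without control 1 (0.86) or control 2 (0.79). In BxPC-3, where AKR1B10 is abundant, the controls at 184, 159 and 163 CPM and the Ocoxin libraries at 187, 164 and 164 CPM overlapped, and the log2 value was 0.03 (SE 0.068). AKR1B10 in SW620 had 0 to 2 counts in every library of both groups, too few for a fold.

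AKR1B1 rose in BxPC-3, from 194, 192 and 174 CPM to 209, 217 and 231 CPM, a log2 fold change of 0.23 (SE 0.060). This call was lost without control 2, control 3, Ocoxin 2 or Ocoxin 3, at log2 values between 0.18 and 0.25. In HCC-70 the controls with 169, 184 and 156 CPM overlapped the Ocoxin libraries with 201, 192 and 181 CPM, and the log2 value of 0.17 (SE 0.058) was not called. It was called with the replicate block, with DESeq2 and without a filter on low counts, each at 0.17, and with an exonic-length trend removed (0.18). It was also called without control 2 (0.23) or Ocoxin 3 (0.21). In SW620 AKR1B1 had 86.2, 87.2 and 92.8 CPM against 90.7, 97.6 and 98.9 CPM, which also overlapped.

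The carbonyl reductases were not called in any line. CBR1 had 73.7, 68.0 and 64.2 CPM in the BxPC-3 controls against 66.7, 65.3 and 61.2 CPM, and 48.4, 50.2 and 52.0 CPM in the HCC-70 controls against 47.8, 50.4 and 49.6 CPM. These ranges overlapped, at log2 values of −0.09 (SE 0.067) and −0.03 (SE 0.050). In SW620 CBR1 had 26.5, 25.9 and 27.5 CPM against 28.1, 29.3 and 31.8 CPM, a log2 value of 0.16 (SE 0.072). CBR3 stayed within overlapping ranges in BxPC-3, 2.28 to 3.55 CPM in controls and 2.72 to 3.85 with Ocoxin, and in HCC-70, 10.8 to 13.9 against 10.2 to 11.4. In SW620 CBR3 had 0 to 5 counts.

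LNCaP, which received the most concentrated Ocoxin, gave the largest log2 values for the AKR1C genes and NMRAL2P, with the widest spread. The levels behind them were low, with AKR1C1 at a mean of 0.574 CPM in controls and 8.83 with Ocoxin. In BxPC-3 these means were 450.7 and 540.3 CPM. AKR1C2 had 6 counts in each control library and 214, 71 and 30 in the Ocoxin libraries, and AKR1C1 had 3, 7 and 6 against 184, 46 and 18. AKR1C3 had 9, 4 and 3 counts against 71, 23 and 16. All 3 genes were thus at trace level without Ocoxin and were counted in each treated library, but the treated libraries differed among themselves several-fold. The fitted log2 values were 4.09 for AKR1C2 (SE 0.86), 3.92 for AKR1C1 (SE 1.01) and 2.75 for AKR1C3 (SE 0.72), and none was called. Without Ocoxin 1 they were 3.05, 2.56 and 1.86, and AKR1C3 was at 3.34 without control 1.

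NMRAL2P was the only member called higher in LNCaP, in a test that it entered through its Ocoxin libraries. It had 2, 0 and 0 counts in controls and 93, 37 and 14 with Ocoxin, a ratio of 72.0 with an exact 95% counting interval from 19.6 to 600.1. AKR1B10 had 1, 1 and 0 counts against 52, 12 and 7, a ratio of 35.5 with an interval from 9.5 to 298.8. These intervals pool the 3 libraries of a group and cover counting error only, and the spread between the treated libraries is larger. Both genes were chosen by response in these libraries, so the intervals are no test of a rise. The fitted log2 value of NMRAL2P, 5.92 (SE 1.18), rests on 2 control counts. AKR1B1, with 1, 2 and 8 counts against 32, 12 and 7, overlapped, and it and AKR1B10 were too low to enter the test. CBR3 had 4.02, 4.77 and 4.58 CPM in controls and 7.88, 6.63 and 6.18 with Ocoxin, which did not overlap, at a log2 value of 0.63 (SE 0.16), and CBR1 had 43.8, 42.6 and 43.6 against 50.99, 48.2 and 43.9, at 0.14 (SE 0.069). Neither was called.

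The LNCaP calls turned on single libraries and on the model. NMRAL2P lost its call without control 1 (log2 8.58), control 2 (5.39), control 3 (5.41), Ocoxin 1 (5.02) or Ocoxin 2 (6.08), and without Ocoxin 3 AKR1C1 and AKR1C2 were called beside it. Over all genes the number called higher fell as well, from 409 to 150, 7, 33, 89 and 3 in that order. Without Ocoxin 3 it was 315. With the replicate block 4 members were called higher: NMRAL2P at a log2 value of 5.92, AKR1C2 at 4.06, AKR1C1 at 3.86 and AKR1C3 at 2.74. DESeq2 called the same 4. Without a filter on low counts 0 members were called in LNCaP.

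All 8 members had their highest LNCaP value in Ocoxin replicate 1 and their lowest treated value in Ocoxin replicate 3. That order held for 23.2% of all 17070 genes tested in LNCaP and for 20 of 22 tested NRF2 targets, among them HMOX1, with 23.3, 21.1 and 19.6 CPM in controls and 98.9, 79.3 and 46.7 CPM with Ocoxin. Of the 36633 genes with at most 3 counts in each LNCaP control, 82 had at least 10 counts in Ocoxin 1, 31 in Ocoxin 2 and 22 in Ocoxin 3. The keratin genes KRT5 and KRT17, at 604 to 1043 RPKM in BxPC-3, where the members are most abundant, were near 0 in LNCaP. KRT5 had 0 counts in each control there and 3, 1 and 0 with Ocoxin, and KRT17 0, 2 and 1 against 1, 1 and 0. KRT7, at 253 to 289 RPKM in BxPC-3, had 0 counts in each LNCaP control and 5, 1 and 3 with Ocoxin, and KRT19 had 92 to 111 against 63 to 87. The BxPC-3 controls held 32720 to 35149 counts of KRT7 and 13762 to 15581 of AKR1C1, and LNCaP Ocoxin 1 held 5 and 184. The tables of these lines were counted differently and to different depths, so these counts cannot be compared directly. COL1A1, a fibroblast marker, had 426 to 561 counts in LNCaP controls and 481 to 610 with Ocoxin. Whether RNA of any other line was present in the LNCaP Ocoxin libraries was not tested.

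**Figure D4:**
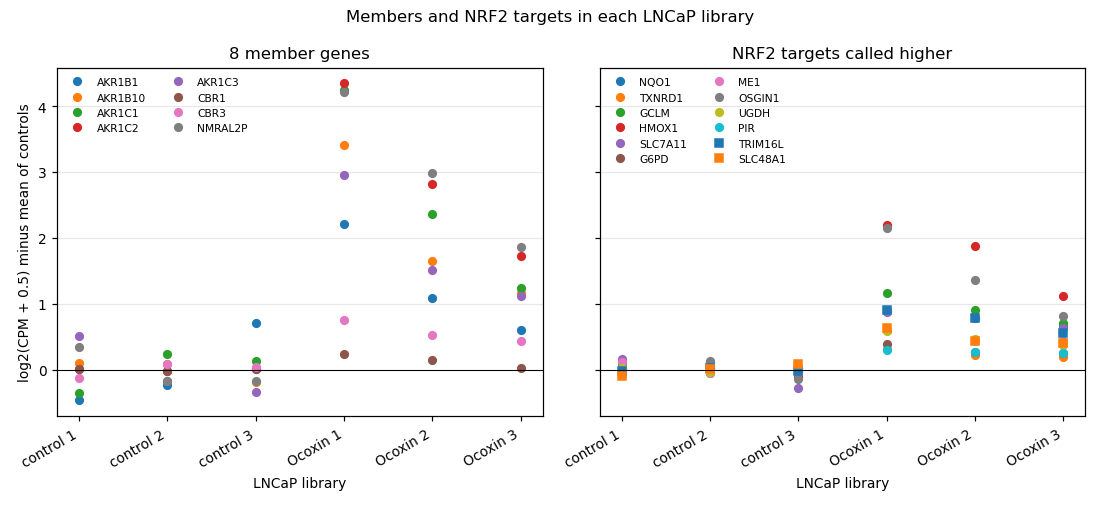
LNCaP libraries on the horizontal axis and log2(CPM + 0.5) minus the mean of the 3 controls on the vertical axis, for the 8 members on the left and the 12 NRF2 targets called higher on the right. In both panels Ocoxin 1 lies highest and Ocoxin 3 lowest of the treated libraries, and the members reach larger differences than the targets.

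The rest of the pathway was read from lists of genes chosen with earlier results of these data known. The adjusted p-values printed for list genes therefore only describe the calls and are no independent support. Of 25 NRF2 targets, 5 of 25 tested rose in SW620, 13 of 25 in BxPC-3, 12 of 22 in LNCaP and 11 of 23 in HCC-70. Of all genes tested, 1.47%, 4.72%, 2.4% and 9.65% were called higher in these lines. A single target was called lower, PRDX1 (a peroxiredoxin) in HCC-70. The median log2 fold change of the tested targets was 0.09, 0.26, 0.43 and 0.14 in that order. In SW620, HMOX1, which degrades heme, rose from 3.69 ± 0.716 to 6.18 ± 0.700 CPM (mean ± SD of 3 libraries, edgeR adjusted p = 0.0143) and TXNRD1, thioredoxin reductase, from 234 ± 3.49 to 278 ± 6.04 (edgeR adjusted p = 0.00441).

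In BxPC-3 the leading targets were OSGIN1, at a log2 fold change of 0.76 (SE 0.10, edgeR adjusted p = 0.000245), and TXNRD1, at 0.65 (SE 0.053, edgeR adjusted p = 1.51e-06). In HCC-70 they were SLC7A11, the cystine transporter, at 0.70 (SE 0.065, edgeR adjusted p = 2.87e-05), and EPHX1, an epoxide hydrolase, at 0.44 (SE 0.044, edgeR adjusted p = 3.77e-05), while PRDX1 fell by 0.17 on the log2 scale (edgeR adjusted p = 0.0133). In LNCaP they were HMOX1, at 1.82 (SE 0.26, edgeR adjusted p = 0.0201), and OSGIN1, at 1.57 (SE 0.32, edgeR adjusted p = 0.0482). The counts depended on single libraries. In HCC-70 7 targets were called without control 1. In LNCaP 6 targets were called without control 1, 1 without control 2, 2 without control 3, 6 without Ocoxin 1 and 0 without Ocoxin 2, and in SW620 1 without control 1, 2 without control 2, 2 without Ocoxin 2 and 3 without Ocoxin 3.

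Of 9 regulators of the pathway, 2 rose in SW620 (MAFF, at 0.50, edgeR adjusted p = 0.00847, and SQSTM1), 2 in BxPC-3 (MAFG, at 0.33, edgeR adjusted p = 0.00452, and SQSTM1) and 0 in LNCaP. Of all genes tested, 1.47%, 4.72% and 2.4% were called higher in these lines. MAFF and MAFG are small MAF proteins, the partners of NRF2 on DNA. In HCC-70 NFE2L1 rose by 0.12 (edgeR adjusted p = 0.0179) and MAFF fell by 0.88 (edgeR adjusted p = 0.00213), beside 9.65% of all genes called higher and 11.3% lower. The LNCaP count of 0 by edgeR stood beside 3 higher at an unadjusted p under 0.05 and 1 by DESeq2.

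The relatives of the members are genes of the same families left after the members were chosen by response. Their calls are therefore not set against those of the members. Of 20 other aldo-keto reductase and carbonyl-reducing genes, 0 of 16 tested were called by edgeR in SW620 and 0 of 14 in LNCaP, with 1 higher in each line at an unadjusted p under 0.05, 0 lower, and 0 by DESeq2. In BxPC-3 2 of 16 tested were higher and 1 lower, beside 4.72% and 3.62% of all genes. There AKR1E2 rose by 0.41 (edgeR adjusted p = 0.0394) and KCNAB2, a potassium channel subunit with an aldo-keto reductase fold, by 0.38 (edgeR adjusted p = 0.0264). In the same line DHRS2, a short-chain dehydrogenase, fell from 53.5 ± 7.29 to 32.3 ± 1.34 CPM (edgeR adjusted p = 9.31e-05). In HCC-70 2 of 16 tested were called higher and 2 lower, beside 9.65% and 11.3% of all genes. AKR1E2 and KCNAB2 rose again, AKR1E2 by 0.37 (edgeR adjusted p = 0.00605) and KCNAB2 by 0.34 (edgeR adjusted p = 0.00161), and AKR7A2 and KCNAB1 fell by 0.18 and 0.62 (edgeR adjusted p = 0.0194 and 0.0491). With the replicate block 7 relatives were called in HCC-70, 5 higher and 2 lower, and 1 lower in LNCaP. In BxPC-3 both higher calls were lost without control 2, where 2 relatives were called lower, or without Ocoxin 1 or Ocoxin 2, and 1 relative was called higher without control 1 or Ocoxin 3. In HCC-70 both lower calls were lost without control 2 or Ocoxin 2, and 1 relative was called lower without control 1, control 3 or Ocoxin 1. AKR1B15, the near copy of AKR1B10, had 14.9 CPM in HCC-70 controls and 17.4 with Ocoxin, a log2 value of 0.23 (SE 0.086) that was not called.

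Other enzymes that handle the same aldehydes moved in both directions. Of 12 such genes, 11 were tested in SW620, 12 in BxPC-3, 8 in LNCaP and 11 in HCC-70. Of all genes tested, 1.47%, 4.72% and 2.4% were called higher in SW620, BxPC-3 and LNCaP, and 1.09%, 3.62% and 0.58% lower. ALDH3A1 rose in SW620 from 46.0 ± 3.19 to 68.3 ± 3.38 CPM (edgeR adjusted p = 1.73e-05). In BxPC-3 RDH10, a retinol dehydrogenase, rose by 0.70 (edgeR adjusted p = 1.05e-06), ALDH1A1, a retinal dehydrogenase, fell by 0.90 (edgeR adjusted p = 6.04e-05), and ADH7 was also called lower. In LNCaP ALDH3A2, which oxidizes fatty aldehydes, rose by 0.55 (edgeR adjusted p = 0.0378). In HCC-70, where 9.65% of all genes were called higher and 11.3% lower, 3 of 11 were called higher, led by ALDH3A1 at 0.69 (edgeR adjusted p = 0.0177), and 3 lower, led by ALDH1A3, which fell by 0.50 (edgeR adjusted p = 2.08e-05).

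Of 11 steroid enzymes, 6 were tested in SW620, in BxPC-3 and in HCC-70 and 11 in LNCaP, and none was called by edgeR outside HCC-70. At an unadjusted p under 0.05 there were 0 in SW620, 1 lower in BxPC-3, and 1 higher and 2 lower in LNCaP, and DESeq2 called 0 in these lines. In HCC-70 2 of 6 rose, beside 9.65% of all genes, led by HSD17B6 at 0.74 (edgeR adjusted p = 0.00714), and 2 fell, beside 11.3%, led by HSD17B10, which fell by 0.18 (edgeR adjusted p = 0.0223). Of 8 genes of the polyol pathway and of the osmotic response, to which AKR1B1 belongs, 2 rose in BxPC-3 and 2 in HCC-70, led in each line by the inositol transporter SLC5A3 (0.33, edgeR adjusted p = 0.0161, and 0.26, edgeR adjusted p = 0.00591). Of all genes tested, 4.72% and 9.65% were called higher in these 2 lines. SORD, the enzyme after AKR1B1 in the polyol pathway, fell by 0.45 in HCC-70 (edgeR adjusted p = 0.0146). None of the 8 was called by edgeR or DESeq2 in SW620, where 1 was higher and 2 lower at an unadjusted p under 0.05, or in LNCaP, where 2 were higher.

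Among all genes, likeness to each member was also described. Likeness was Pearson's r of log2(CPM + 0.5), with the mean of each line removed, over 24 libraries and 11591 genes that had at least 1 CPM in every line. ALDH3A2, a gene of the aldehyde list, had the highest r for 5 members, at r = 0.95 for AKR1B10 and AKR1C1, 0.98 for AKR1C2, 0.97 for AKR1C3 and 0.97 for NMRAL2P. NQO2, a quinone reductase, and GTPBP2 followed for AKR1C2, AKR1C3 and NMRAL2P, GTPBP2 and LURAP1L for AKR1C1, and NQO2 and GCLM, an NRF2 target of the list, for AKR1B10. The libraries share the treatment contrast, and the LNCaP libraries set much of these values. Without the 6 LNCaP libraries, an alternative chosen after seeing the data, ALDH3A2 gave r between 0.73 and 0.89 for these 5 genes, LURAP1L fell to 0.37 for AKR1C1, and for AKR1B10 ALDH3A2 (0.73) came after GCLM (0.88) and NQO2 (0.75).

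The remaining members had other neighbours. AKR1B1 was closest to KCNK6 (r = 0.90), UPP1 (0.87) and FOS (0.87), but without LNCaP these were 0.29, 0.70 and −0.12, so the likeness to KCNK6 and FOS rested on that line. CBR1 was closest to NUDT18 (0.81), FBXO6 (0.80) and RPL37 (0.80), and CBR3 to PTGR3 (0.83), NFE2L2 (0.79), which encodes NRF2, and STAM2 (0.77). These values are descriptions across libraries of 4 lines, and no p was computed.

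**Figure D5:**
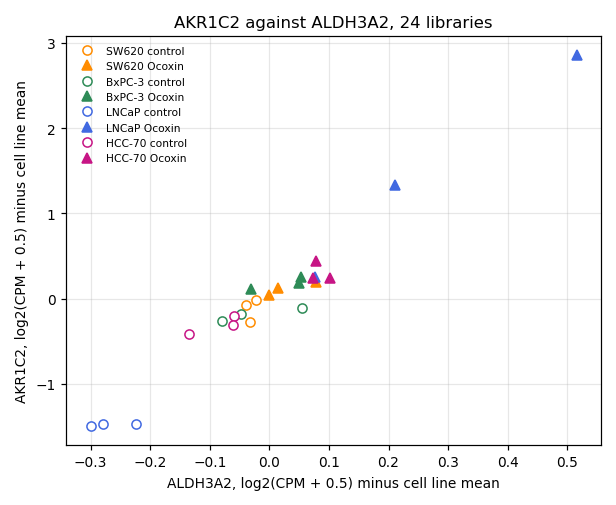
AKR1C2 against ALDH3A2 in the 24 libraries, each as log2(CPM + 0.5) minus the mean of its cell line, with open circles for controls and filled triangles for Ocoxin. The LNCaP libraries reach from about −1.5 to 2.9 for AKR1C2, and the libraries of the other lines lie within 0.5 of their mean.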

How the data were processed

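Messenger RNA of 24 libraries was measured, 3 control and 3 Ocoxin libraries for each of 4 cell lines, grouped by the letters C and O of their titles. The labels' treatment field names an Ocoxin dilution for the controls as well, so that field does not separate the groups. Per the study's methods, trimming was done with fastp, alignment (hg38) with STAR and removal of duplicates with picard, and the authors deposited raw counts per gene from featureCounts 2.0.3 (exons, primary alignments, no strand, reads overlapping several genes dropped). The LNCaP table was counted without the paired-end option and the table of the other lines with it but per read. Genes with 2 counts were 2.99, 2.99 and 3.02 times as many as genes with 1 count in SW620, BxPC-3 and HCC-70, and 0.491 times in LNCaP. Removal of duplicates lowers the counts of abundant genes most.

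Counts were filtered with filterByExpr, scaled by TMM and tested per line with the robust two-sided quasi-likelihood test of edgeR 4.0.16 in R 4.3.3, with Benjamini-Hochberg adjustment over 17659, 17280, 17070 and 17352 genes (SW620, BxPC-3, LNCaP, HCC-70). The fit was also run on simulated counts with the same spread for every gene and changes only in well-counted genes. That run does not cover members with few counts or with several-fold differences between treated libraries. CPM use the library total scaled by TMM, RPKM further divide by the exonic length of the table, and ± is the SD of 3 libraries. The floor was 3 counts per library. Members and lists were chosen with earlier results of these data known. All members were named in every line, and of each list the called genes with at least 1 CPM that had the largest increase and decrease (2 each for relatives and NRF2 targets, 1 each otherwise). Others (SQSTM1, ADH7 and AKR1B15) were named after their values were seen.

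Libraries with the same number deviated together from their group means (r over genes 0.317 to 0.618 in BxPC-3, 0.176 to 0.605 in LNCaP, 0.287 to 0.631 in HCC-70), each pair above 0.1, by which rule the numbers were taken to pair them, but in SW620 a pair had 0.084. Differently numbered pairs passed this rule too. Control 2 with Ocoxin 1 had 0.412 in SW620, 0.138 in BxPC-3, 0.137 in LNCaP and 0.348 in HCC-70. Control 1 with Ocoxin 2 had 0.214 in BxPC-3, 0.134 in LNCaP and 0.252 in HCC-70. Only number 3 stood clearly apart, so the rule does not establish a pairing of the numbers 1 and 2 in any line. Alternatives were DESeq2 1.42.0, DESeq2 size factors in edgeR, no filter, at least 10 counts in every library, all 24 libraries in 1 fit, the replicate block, an adjusted p under 0.01, removal of an exonic-length trend, each library left out, and levels without TMM. Sequences came from GENCODE release 44 transcripts and RefSeq promoters (GRCh38.p14).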

Additional observations from a re-analysis of the deposited data

How the results depend on the processing

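The fold changes of the members were stable in direction, and their calls were not. Of 386 recomputed values, 331 kept direction and call, 29 lost the call, 22 gained it and 4 changed sign without being called in either fit: AKR1B10 in BxPC-3 without control 2 (−0.019), control 3 (−0.004) or Ocoxin 1 (−0.039), and CBR3 there without control 2 (−0.055). Over all libraries left out in turn they ranged up to 0.091 and 0.263. No member was called lower under any alternative.

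The count of members called higher went from 2 to 0 in SW620 and from 4 to 0 in BxPC-3 with all 24 libraries in 1 fit, and to 1 in SW620 at an adjusted p under 0.01. In LNCaP it went from 1 to 4 with DESeq2, with the replicate block or with the length trend removed, to 6 with all libraries in 1 fit, and to 0 without a filter, with at least 10 counts in every library, where the AKR1C genes and NMRAL2P cannot enter, or at an adjusted p under 0.01. The cause was not tested otherwise. Leaving out a library gave 1 to 2 in SW620, 2 to 4 in BxPC-3, 0 to 3 in LNCaP and 3 to 5 in HCC-70. In most of these fits fewer genes were called over all genes too, in LNCaP down to 3 higher without Ocoxin 2, against 409.

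The count of relatives called went from 0 to 1 in SW620 and LNCaP and from 4 to 7 in HCC-70 with the replicate block, and at an adjusted p under 0.01 from 3 to 1 in BxPC-3 and from 4 to 2 in HCC-70. Without 1 library it was 0 to 1 in SW620, 1 to 3 in BxPC-3 and 2 to 4 in HCC-70. The count of NRF2 targets called in SW620 went from 5 to 8 with the block and to 2 with the length trend removed, and at an adjusted p under 0.01 to 1 in SW620, 1 in LNCaP and 7 in HCC-70, from 12 in each of the latter. Without 1 library it was 1 to 5 in SW620, 9 to 14 in BxPC-3, 0 to 12 in LNCaP and 7 to 12 in HCC-70. For both lists and the members the cause was not tested. The pairing by number does not hold throughout SW620 and is not established for the numbers 1 and 2 in the other lines, so calls with the block are uncertain. In SW620 the block also called the 2 members of the fit without it.

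Without TMM, 7 members were still highest in BxPC-3, and 11 of 32 mean levels moved by more than 1 SD. Without LNCaP the r of AKR1B1 with FOS became −0.116. Calls of single list genes were not recomputed. In SW620 AKR1B10 and CBR3, and in LNCaP AKR1B1, AKR1B10, NMRAL2P and the AKR1C genes, had at most 9 counts per control library, which makes their folds imprecise.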
